A study of Homo sapiens with 76 samples.

Results

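TK6 cells treated with cadmium chloride and TK6 cells treated with potassium chromate were compared directly with each other. They comprised 4 of the 76 cDNA samples of the series, namely 2 samples of cells exposed to 50 µM CdCl2 and 2 samples of cells exposed to 100 µM K2CrO4, and were chosen by the agent given in the sample labels. Both agents were dissolved in H2O and both exposures lasted 4 h. TK6 is an established human B lymphoblastoid line with functional p53. The mRNA of 61 genes was measured by TaqMan RT-qPCR. They belong to the TGx-DDI biomarker, a panel that separates agents that induce DNA damage (DDI) from those that do not, and were first selected on microarray data of TK6 cells given these agents. The level of a gene is given here as −ΔCq, the mean Cq of the reference genes HPRT1 and GUSB minus the Cq of the gene, so that 1 unit is about a doubling of mRNA. Both agents share a vehicle, and it cancels when one agent is subtracted from the other. The H2O vehicle shared by both agents (2 samples), the mean of the 8 other vehicles (16 samples, among them the separate H2O vehicle of NaAsO2) and cells given 20 µM 2-deoxyglucose (2-DG), a glycolysis inhibitor in the same solvent (2 samples), served as further points of comparison, all with the 4 h exposure. The H2O vehicle itself stood apart: it had the lowest mean of all 38 conditions in 15 genes. It lay below the range of the 8 other vehicles in 32 genes and above it in 4, namely GADD45A, PTGER4, RAPGEF2 and B3GNT2.

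The concentrations differ. They had been set for each agent in earlier work, from viability and from the induction of ATF3, GADD45A and CDKN1A. The metal, its concentration and its counter-ion therefore cannot be told apart in any difference below. Replicates came from separate exposures, according to the study's methods. Between replicates the median SD over the genes was 0.081 for each agent, and K2CrO4 replicate 1 was higher than replicate 2 in 50 of the 61 genes. In bulk RNA, fewer cells with a transcript and less transcript in every cell cannot be told apart.

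Cadmium and chromate are both classed as DDI agents, but they are known to act by different routes. Cadmium is a divalent cation that binds thiols and displaces zinc, and it is known to impair DNA repair and protein folding. Chromate enters cells through anion transporters and is reduced inside them, which leaves chromium bound to DNA together with oxidative lesions. Damage of either kind can activate p53, which turns on arrest genes such as CDKN1A and its own negative regulators MDM2 and PPM1D. Replication-dependent histone genes, also on the panel, are transcribed mainly in S phase, and their transcripts are quickly lost when DNA synthesis stops. None of the 61 genes is a metallothionein.

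Of the 61 genes, 35 differed between CdCl2 and K2CrO4 at an adjusted p under 0.05 (57.4% of those tested), 6 higher (9.84%) and 29 lower (47.5%) in CdCl2 (limma, all 76 samples in the fit, Benjamini-Hochberg over the 61 genes). At an unadjusted p under 0.05 there were 42. The median difference over the panel was −0.57 on the log2 scale, with 49 genes below 0 and 12 above it. The 6 genes higher in CdCl2 were CDKN1A, GADD45A, BTG2, PHLDA3, PLK3 and PRKAB1, all of them p53 targets. The lowest was the histone H2B gene HIST1H2BG, with a difference of −4.92 (standard error 0.29).

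That split depends on what the genes are scaled to. With the panel median in place of HPRT1 and GUSB, the median difference moved to 0.01, and 15 genes were higher and 7 lower in CdCl2. This scaling sets each sample to its own median of the same genes, so such a small median difference follows from the scaling itself. The counts of 15 and 7 are therefore relative to the middle of the panel and do not test the split. All 6 genes named above were still called higher, and HIST1H2BG, RBM12B, DCP1B, RAPGEF2, TOPORS, CENPE and CBLB were still called lower. The other 22 lower genes passed against HPRT1 and GUSB but not against the panel median. The distance between both reference genes themselves, GUSB minus HPRT1, was 1.18 and 1.13 cycles in CdCl2 and 1.26 and 1.25 cycles in K2CrO4, close to the series median of 1.23 cycles. Either gene alone gave 5 higher and 27 lower (HPRT1) or 6 higher and 32 lower (GUSB).

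**Figure D1:**
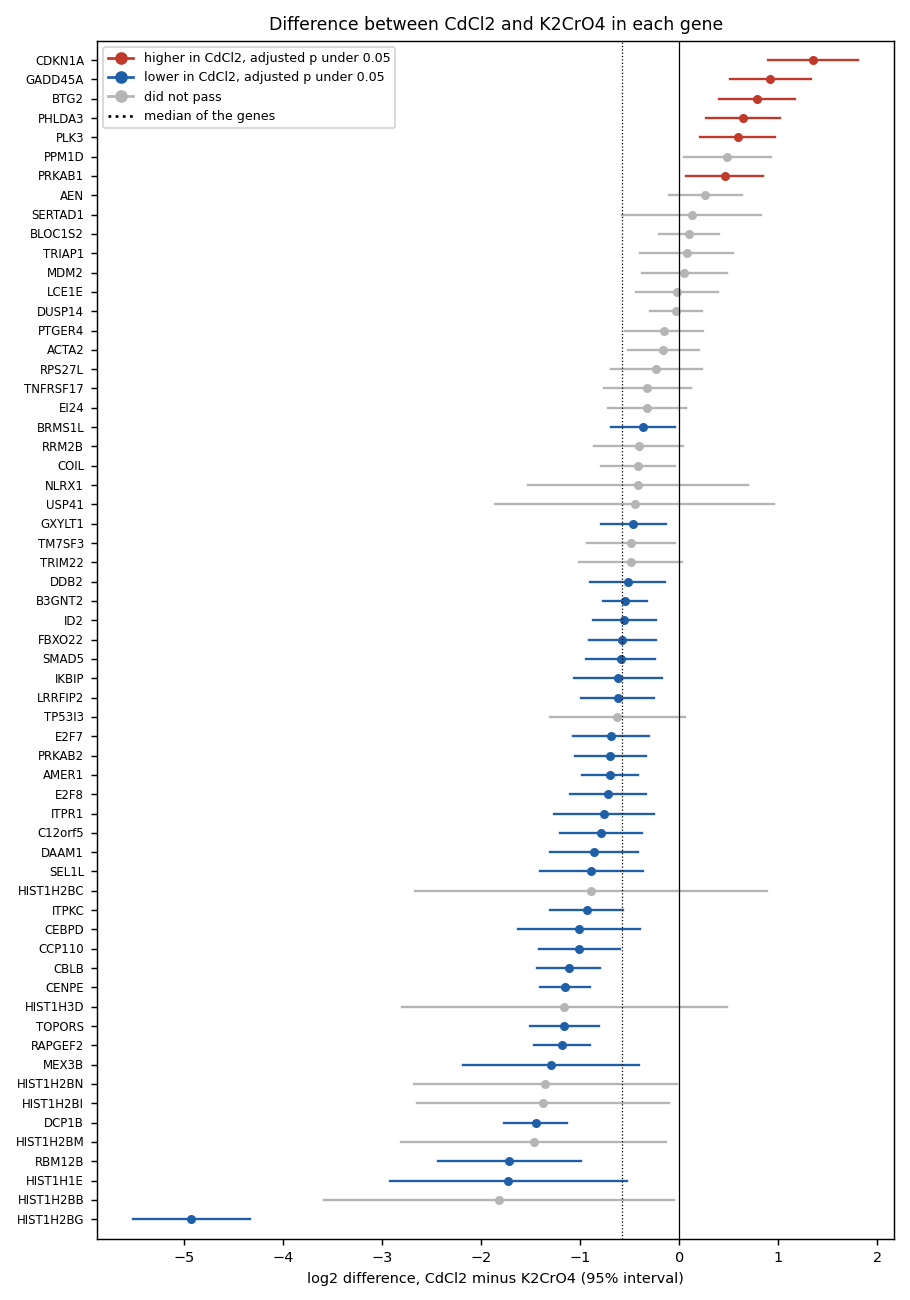
Log2 difference of each of the 61 genes, CdCl2 minus K2CrO4 (x axis), with its 95% interval, genes ordered by the difference. Red genes were higher and blue genes lower in CdCl2 at an adjusted p under 0.05 from limma, grey genes did not pass, and the dotted line is the panel median of −0.57; HIST1H2BG stands far from all other genes.

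The arrest genes were the group that stood higher in CdCl2. All 4 passed, while 9.84% of the whole panel was called higher, and the group median was 0.85 against −0.57 for the panel. They passed in the same direction with each of the 3 scalings tried. CDKN1A encodes the cell cycle inhibitor p21. Its level was −0.45 and −0.15 in the CdCl2 samples, −1.58 and −1.73 in the K2CrO4 samples and −0.87 and −0.96 in the H2O vehicle. The CdCl2 samples lay above the vehicle and the K2CrO4 samples below it, and no values overlapped. The difference was 1.35 (standard error 0.23, adjusted p = 4.4e-06 from limma), or 2.55-fold with a 95% interval of 1.86 to 3.50.

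GADD45A, a growth arrest and DNA damage protein, had levels of −0.18 and −0.06 in CdCl2, −0.99 and −1.09 in K2CrO4 and 0.70 and 0.42 in H2O. Both agents stood below the H2O vehicle, with chromate the lower. The H2O mean of 0.56 lay above the range of the 8 other vehicles, which was −2.155 to −0.805. Against the mean of those 8, CdCl2 stood higher by 1.35 (adjusted p = 4.6e-10). K2CrO4 stood 0.43 above it and did not pass (adjusted p = 0.0657, both from limma). The difference between them was 0.92 (standard error 0.20, adjusted p = 0.00022 from limma), 1.89-fold. CDKN1A and GADD45A are also among the genes by which the concentrations had been set.

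BTG2, an antiproliferative co-regulator, stood at −3.67 and −3.39 in CdCl2 and −4.41 and −4.24 in K2CrO4, a difference of 0.79 (standard error 0.19). PLK3, a stress-responsive polo-like kinase, stood at −4.03 and −3.75 in CdCl2 and −4.48 in both K2CrO4 samples, a difference of 0.59. In both genes the H2O vehicle was lower than either agent, at −4.61 and −4.87 for BTG2 and −4.85 and −5.01 for PLK3. Its means also lay below the range of the 8 other vehicles in both genes. Against the mean of those 8, BTG2 differed by 0.40 in CdCl2 (adjusted p = 0.012 from limma) and −0.39 in K2CrO4. PLK3 differed from it by 0.23 in CdCl2 and −0.36 in K2CrO4. Of these 4 differences, that of BTG2 in CdCl2 alone passed. PHLDA3, which represses Akt, differed by 0.65, with −1.24 and −0.94 in CdCl2 and −1.68 and −1.79 in K2CrO4. PRKAB1, a beta subunit of AMP-activated kinase, differed by 0.46 (adjusted p = 0.0392 from limma), with −2.82 and −2.67 in CdCl2 and −3.13 and −3.29 in K2CrO4. The samples of one agent did not overlap those of the other in these 6 genes. The same held for 56 of the 61 genes (91.8%), and absence of overlap was part of the rule by which genes were named. CdCl2 replicate 2 had the higher level in all 6, and without it CDKN1A (1.20), GADD45A (0.86) and BTG2 (0.65) still passed, whereas PHLDA3 (0.50, adjusted p = 0.068), PLK3 (0.45, adjusted p = 0.11) and PRKAB1 (0.39, adjusted p = 0.17, limma) did not. PRKAB1 did not pass without any other of the 4 samples either (adjusted p from 0.056 to 0.17), nor with HPRT1 alone (0.061).

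**Figure D2:**
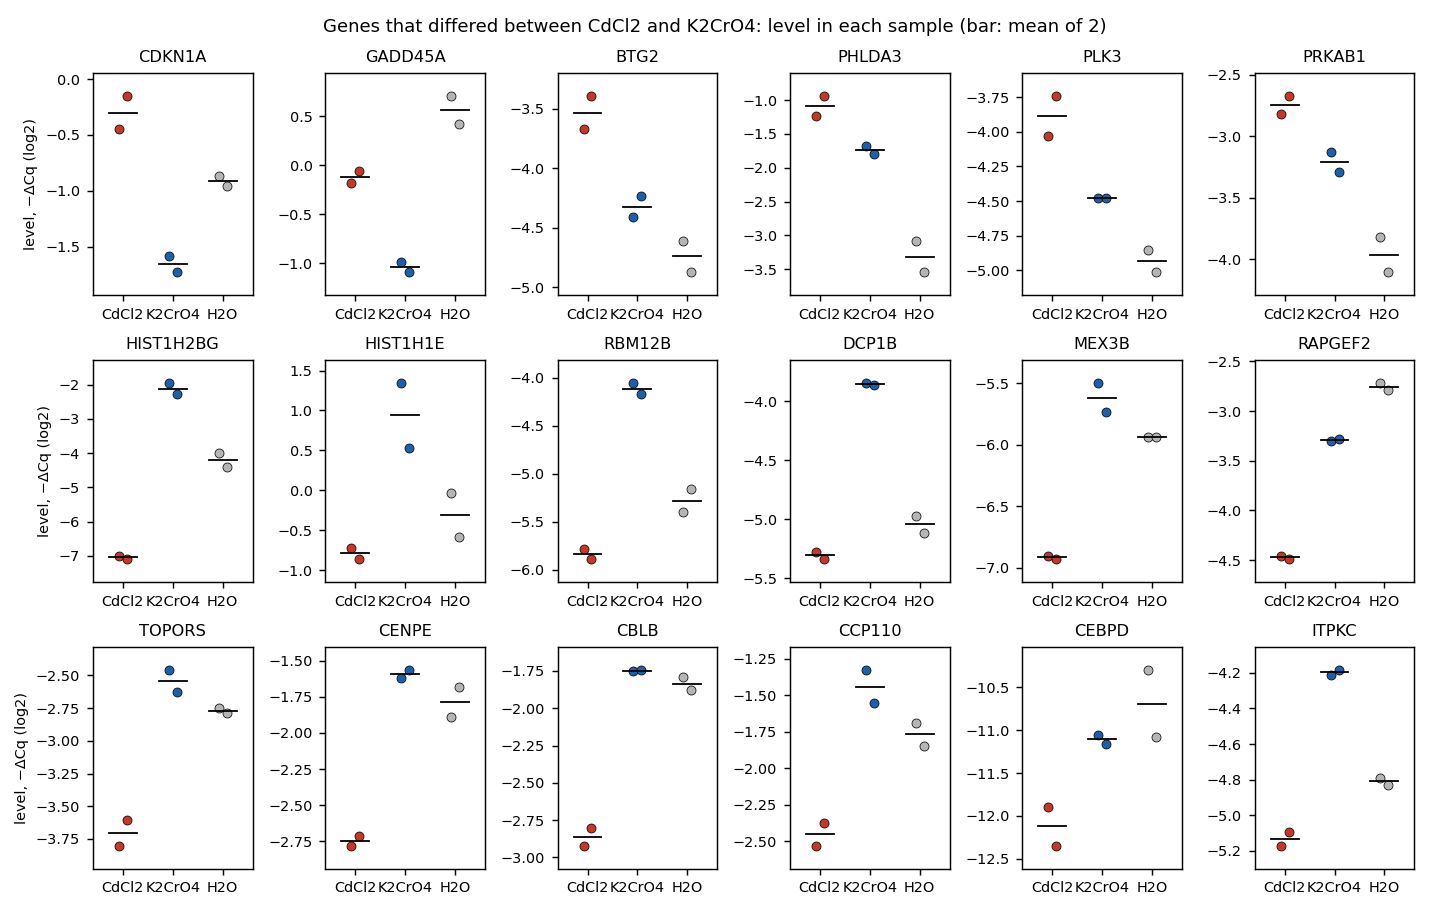
Level (−ΔCq, log2 scale, y axis) of the 6 genes higher and the 12 genes lowest in CdCl2 among those called, 1 point for each sample and a bar for the mean of 2, in CdCl2 (red), K2CrO4 (blue) and the H2O vehicle (grey). The y axes differ between panels, and the genes were picked among those in which the CdCl2 and K2CrO4 points do not overlap, as in 56 of the 61 genes.

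Of the 23 p53 targets on the panel, the arrest genes included, 6 were higher in CdCl2, 5 were lower and 12 did not pass, with a median of −0.16 against −0.57 for the whole panel. With the panel median as the reference, the count was 12 higher and none lower, and the median turned to 0.43. Of the p53 feedback genes, PPM1D, a phosphatase that acts on p53 and its kinases, stood at −2.69 and −2.58 in CdCl2 and −2.94 and −3.31 in K2CrO4. Its difference of 0.48 just missed the threshold (adjusted p = 0.0507 from limma, 95% interval 0.05 to 0.92). MDM2, the ubiquitin ligase that degrades p53, had levels of −2.80 and −2.65 in CdCl2 and −2.66 and −2.90 in K2CrO4. The MDM2 values overlapped, and the difference of 0.05 had an interval of −0.38 to 0.48.

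Among death and survival genes, TRIAP1, an inhibitor of apoptosis, differed by 0.08 (interval −0.40 to 0.55) and AEN, an apoptosis enhancing nuclease, by 0.27 (−0.11 to 0.64). EI24, an endoplasmic reticulum protein, differed by −0.33 (−0.72 to 0.07), and TP53I3, a quinone reductase, by −0.63 (−1.31 to 0.06). IKBIP was lower in CdCl2 at −0.62 (standard error 0.22), a call lost with HPRT1 alone (adjusted p = 0.061) and without CdCl2 replicate 1 (0.056), CdCl2 replicate 2 (0.065) or K2CrO4 replicate 1 (0.12). DDB2, which recognises lesions for nucleotide excision repair, was lower by a difference of −0.52 (adjusted p = 0.015 from limma), with −2.95 and −3.08 in CdCl2 and −2.44 and −2.54 in K2CrO4. The DDB2 call was lost with HPRT1 alone (adjusted p = 0.055) and without CdCl2 replicate 2 (0.10) or K2CrO4 replicate 1 (0.095), and its difference was 0.065 against the panel median. RRM2B, a ribonucleotide reductase subunit, differed by −0.41 (−0.86 to 0.04). C12orf5, now named TIGAR, a fructose bisphosphatase that lowers glycolytic flux, was lower in CdCl2, with −3.14 and −2.85 in CdCl2 and −2.07 and −2.33 in K2CrO4, a difference of −0.79 (adjusted p = 0.00147 from limma). The p53 targets without a shared role here were LCE1E at −0.02 (−0.44 to 0.40), ACTA2 at −0.16 (−0.52 to 0.20), RPS27L at −0.23 (−0.69 to 0.23) and TM7SF3 at −0.49 (−0.93 to −0.04, adjusted p = 0.0517 from limma).

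HIST1H2BG carried the widest difference of the panel. The stretches of 160 bases just before the annotated start of HIST1H2BG and of 2 other H2B genes are shown because the 3 transcripts encode near-identical proteins and share promoter elements, while their differences between the agents were −4.92, −1.47 and −1.38. The sequences are from RefSeq (GRCh38.p14), 5′ to 3′ on the strand of the gene, all on chromosome 6: chr6:26216689-26216848 on the minus strand for HIST1H2BG, chr6:27814862-27815021 on the plus strand for HIST1H2BM and chr6:26272771-26272930 on the plus strand for HIST1H2BI. Capitals mark the octamer ATTTGCAT, the CCAAT box and TATAAA on either strand, and the last base precedes the start.
HIST1H2BG: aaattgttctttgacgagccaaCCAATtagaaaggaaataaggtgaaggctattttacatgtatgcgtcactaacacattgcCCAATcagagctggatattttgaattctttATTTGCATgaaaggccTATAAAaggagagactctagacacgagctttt
HIST1H2BM: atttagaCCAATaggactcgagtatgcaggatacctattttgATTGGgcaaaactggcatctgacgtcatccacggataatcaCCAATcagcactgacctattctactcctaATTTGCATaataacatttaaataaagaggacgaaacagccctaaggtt
HIST1H2BI: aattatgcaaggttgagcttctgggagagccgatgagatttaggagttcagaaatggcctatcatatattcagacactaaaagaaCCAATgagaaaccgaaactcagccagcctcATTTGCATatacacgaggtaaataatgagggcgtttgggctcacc

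The octamer, bound by POU-domain factors and typical of H2B promoters, was found in 6 of the 9 windows of 300 bases (250 before to 50 after the start) that RefSeq gave for the 8 histone genes, in 1 of the 60 windows of other panel genes and in 1.77% of all 35116 promoter windows. CCAAT was found in 9 of the 9 histone windows and in 34.6% of all windows, and TATAAA in 6 of 9 and in 11.5%. Of the 3 stretches above, that of HIST1H2BG alone has TATAAA. It is not particular to HIST1H2BG among the histone genes. HIST1H2BB and HIST1H1E also have TATAAA just before the start on the strand of the gene, and they differed between the agents by −1.82 and −1.73. Whether TATAAA bears on the size of the difference was not tested. A loose pattern for the core of the metal response element, TGCNCNC with any base at N, was searched on both strands. It was found in 2 of the 9 histone windows, though not in that of HIST1H2BG. Of the other panel windows 45 of 60 held it, and of all windows 55.9%. These matches describe the letters only.

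HIST1H2BG had levels of −7.00 and −7.08 in CdCl2, −1.96 and −2.27 in K2CrO4 and −4.01 and −4.40 in the H2O vehicle. The H2O vehicle lay between the agents, with more than 1.5 units to either side. The means of the 8 other vehicles ran from −5.3725 to −1.6225. The CdCl2 mean lay below that range and the K2CrO4 mean within it. The corresponding Cq values were 30.38 and 30.64 cycles in CdCl2 and 25.63 and 25.65 cycles in K2CrO4. The difference of −4.92 corresponds to a level 30.4-fold lower in CdCl2, with a 95% interval of 20.2 to 45.7 (adjusted p = 3.4e-18 from limma). It ranged from −4.34 with the panel median to −5.08 without K2CrO4 replicate 2. The array carried an alternate assay for this gene, one of the pair was retained on biomarker performance, and which one is not given in the sources used here.

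The 7 other histone genes were lower in CdCl2 by smaller amounts, with differences between −0.90 and −1.82 and a median of −1.38. Of all 8 histone genes, 2 passed, HIST1H2BG and the linker histone HIST1H1E, and 6 did not, while 47.5% of the whole panel was called lower. HIST1H1E stood at −0.72 and −0.85 in CdCl2 and 1.34 and 0.54 in K2CrO4, a difference of −1.73 (standard error 0.59, adjusted p = 0.0119 from limma). This call was lost without CdCl2 replicate 2 (adjusted p = 0.065) and without K2CrO4 replicate 1 (0.14), and with the panel median the difference was −1.14 (0.14).

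HIST1H2BM had levels of −3.00 and −3.04 in CdCl2 and −1.53 and −1.57 in K2CrO4, a difference of −1.47 (95% interval −2.81 to −0.13, adjusted p = 0.0512 from limma). HIST1H2BB stood at −4.02 and −4.12 in CdCl2 and −2.01 and −2.48 in K2CrO4, a difference of −1.82 (−3.59 to −0.05). HIST1H2BI differed by −1.38 (−2.65 to −0.10), HIST1H2BN by −1.35 (−2.68 to −0.02), HIST1H3D, a histone H3 gene, by −1.16 (−2.80 to 0.48) and HIST1H2BC by −0.90 (−2.67 to 0.88). In all 8 genes the CdCl2 samples lay below the K2CrO4 samples, as they did in 46 of the 61 genes of the panel. The spread of each gene was pooled over all 38 conditions. With the 4 samples alone in the fit, all 8 histone genes passed, and with the H2O family 6 did. The H2B genes are highly similar in their coding sequence and have no introns, and how far each assay also detects its paralogs was not tested.

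**Figure D3:**
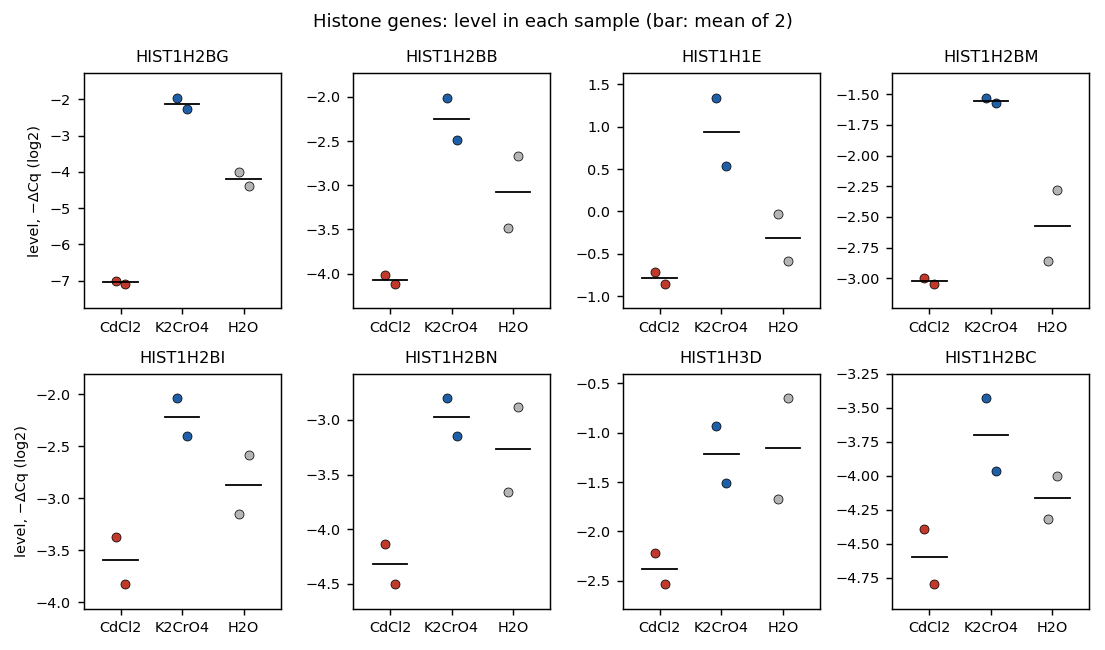
Level (−ΔCq, log2 scale, y axis) of the 8 histone genes in each sample of CdCl2 (red), K2CrO4 (blue) and the H2O vehicle (grey), with a bar for the mean of 2. The y axes differ between panels; the CdCl2 mean was the lowest of the 3 in every panel, 4.92 units below K2CrO4 for HIST1H2BG and 0.90 for HIST1H2BC.

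All 4 cell cycle genes were lower in CdCl2, with a median of −0.86, while 47.5% of the whole panel was called lower. CENPE, a mitotic kinesin of the kinetochore, stood at −2.78 and −2.71 in CdCl2 and −1.62 and −1.56 in K2CrO4, a difference of −1.16 (standard error 0.13, adjusted p = 3.9e-10 from limma). CCP110, which caps centrioles, stood at −2.53 and −2.38 in CdCl2 and −1.33 and −1.55 in K2CrO4, a difference of −1.01. The atypical E2F repressors E2F8 and E2F7 were lower by differences of −0.72 and −0.68. Of these 4, CENPE alone still passed against the panel median.

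RNA and nuclear genes were lower as well, with a median of −1.29. Of these, 4 of 5 passed, while 47.5% of the whole panel was called lower. MEX3B and BRMS1L did not pass against the panel median. RBM12B, an RNA-binding protein, had levels of −5.78 and −5.88 in CdCl2, −4.06 and −4.17 in K2CrO4 and −5.40 and −5.16 in H2O, and differed by −1.72 (standard error 0.36, adjusted p = 0.00011 from limma). DCP1B, a co-factor of mRNA decapping, had levels of −5.28 and −5.33 in CdCl2, −3.85 and −3.87 in K2CrO4 and −4.97 and −5.12 in H2O. Its replicates lay at most 0.15 units apart in each of the 3 conditions, and it differed by −1.45 (standard error 0.16). For both RBM12B and DCP1B, the H2O mean lay below the range of the 8 other vehicles. Against the mean of those 8, RBM12B differed by −1.35 in CdCl2 and 0.36 in K2CrO4. DCP1B differed from it by −1.62 in CdCl2 and −0.17 in K2CrO4. In both genes the CdCl2 difference passed and the K2CrO4 difference did not. MEX3B, an RNA-binding ubiquitin ligase, stood at −6.90 and −6.92 in CdCl2 and −5.50 and −5.74 in K2CrO4, a difference of −1.30 (adjusted p = 0.0115 from limma), which did not pass without CdCl2 replicate 2 (0.059) or K2CrO4 replicate 1 (0.073). BRMS1L, of the SIN3 histone deacetylase complex, was lower by a difference of −0.36 (adjusted p = 0.0485 from limma), a call lost without any 1 of the 4 samples (adjusted p from 0.065 to 0.22). COIL, the scaffold of Cajal bodies, did not pass at −0.42 (−0.79 to −0.04, adjusted p = 0.0507 from limma).

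Signalling genes were lower in 6 of 7 cases, while 47.5% of the whole panel was called lower. Of these 6, RAPGEF2 alone still passed against the panel median. RAPGEF2, an exchange factor for Rap GTPases, stood at −4.46 and −4.49 in CdCl2, −3.30 and −3.29 in K2CrO4 and −2.72 and −2.79 in H2O, a difference between the agents of −1.18 (standard error 0.14, adjusted p = 2.5e-09 from limma). Its H2O mean lay above the range of the 8 other vehicles. Against the mean of those 8, it differed by −0.67 in CdCl2 and 0.51 in K2CrO4. ITPKC, a kinase of inositol trisphosphate, and ITPR1, the calcium channel that this messenger opens, were lower by differences of −0.94 (standard error 0.18) and −0.76 (0.25). DAAM1 and AMER1, both of Wnt signalling, were lower by differences of −0.86 (0.22) and −0.70 (0.14), and SMAD5, a BMP signal transducer, by −0.59 (0.17). ITPR1 did not pass without CdCl2 replicate 2 (adjusted p = 0.065 from limma) or K2CrO4 replicate 1 (0.063), nor SMAD5 without K2CrO4 replicate 1 (0.056). PTGER4, a prostaglandin E2 receptor, is the seventh. Its levels were −6.38 and −6.53 in CdCl2, −6.25 and −6.34 in K2CrO4 and −4.31 and −4.54 in H2O. Both agents thus stood about equally far below the H2O vehicle, and they differed by −0.15 (−0.55 to 0.24). The H2O mean of PTGER4, −4.425, lay above the range of the 8 other vehicles, which was −6.625 to −4.8975. Against the mean of those 8, CdCl2 differed by −0.56 (adjusted p = 0.00073). K2CrO4 differed from it by −0.40 and did not pass (adjusted p = 0.0657, both from limma). The means of both agents lay within that range.

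Of the 5 genes of ubiquitination and degradation, 4 were lower in CdCl2, while 47.5% of the whole panel was called lower. TOPORS, a ubiquitin and SUMO ligase that binds topoisomerase I, stood at −3.80 and −3.60 in CdCl2 and −2.46 and −2.62 in K2CrO4, a difference of −1.16 (standard error 0.17). CBLB, a ligase that dampens immune receptor signalling, stood at −2.92 and −2.81 in CdCl2 and −1.75 and −1.74 in K2CrO4, a difference of −1.11 (standard error 0.16). SEL1L, an adaptor of endoplasmic reticulum associated degradation, was lower by a difference of −0.88 (0.26), and FBXO22, an F-box protein, by −0.57 (0.17). Neither SEL1L nor FBXO22 passed against the panel median. USP41, now annotated as the pseudogene USP41P, had Cq values above 32 cycles in all 4 samples and did not pass (−0.45, interval −1.86 to 0.96).

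PRKAB2, the other beta subunit of AMP-activated kinase, was lower in CdCl2 by a difference of −0.70 (standard error 0.18), whereas PRKAB1 was higher. Both enzymes of glycosylation, B3GNT2 at −0.55 (0.11) and GXYLT1 at −0.46 (0.16), were lower against HPRT1 and GUSB, and stood at 0.035 and 0.12 against the panel median. GXYLT1 did not pass without CdCl2 replicate 2 (adjusted p = 0.082 from limma) or K2CrO4 replicate 1 (0.16). Of the early stress genes, CEBPD, a C/EBP transcription factor, was lower by a difference of −1.01 (0.30), with Cq values of 35.27 and 35.90 cycles in CdCl2 and 34.73 and 34.53 cycles in K2CrO4, the latest of the panel. Without CdCl2 replicate 2 the CEBPD difference was −0.78 (adjusted p = 0.081 from limma). ID2 was lower by a difference of −0.56 (0.16), while DUSP14 (−0.04, interval −0.30 to 0.23) and SERTAD1 (0.12, interval −0.57 to 0.82) did not pass. LRRFIP2 was lower by a difference of −0.62 (0.18) and BLOC1S2 did not pass (0.10, interval −0.20 to 0.40). Of the immune genes, TRIM22 at −0.49 (−1.01 to 0.03), NLRX1 at −0.42 (−1.52 to 0.69) and TNFRSF17 at −0.32 (−0.76 to 0.12) did not pass. TNFRSF17, also called BCMA, is the only marker of the B lineage on the panel and was detected in all 4 samples, at 28.75 and 29.01 cycles in CdCl2 and 28.75 and 28.48 cycles in K2CrO4.

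The same genes were then placed against vehicles. Against the mean of the 8 other vehicles, CdCl2 differed in 51 genes (83.6% of those tested), 6 higher (9.84%) and 45 lower (73.8%), and K2CrO4 in 5 (8.2%), 2 higher (3.28%) and 3 lower (4.92%), at an adjusted p under 0.05 from limma. At an unadjusted p under 0.05 the counts were 52 and 14. These p-values take in the spread between replicates but not the spread between the 8 vehicles. Of the CdCl2 means, 35 lay below the range of these vehicles, 5 above it and 21 within it. PRKAB1, DUSP14 and PTGER4, for example, were called for CdCl2 though their means lay within that range. The 5 genes of K2CrO4 were ITPR1 (0.70) and RAPGEF2 (0.51), which were higher, and LCE1E (−0.85), TNFRSF17 (−0.72) and ACTA2 (−0.49), which were lower. Among these, the K2CrO4 mean of LCE1E (−8.98) lay below the range of the 8 vehicles, which was −8.625 to −7.4575. For ITPR1, RAPGEF2, TNFRSF17 and ACTA2 it lay within their range. The median difference over the panel was −0.60 for CdCl2 and −0.04 for K2CrO4. With the panel median the counts were 12 higher and 17 lower for CdCl2, and 2 higher and 9 lower for K2CrO4.

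All 8 histone genes were lower in CdCl2 than in the 8 other vehicles, by differences of −1.78 to −4.37, as were 73.8% of all genes. None of the 8 passed in K2CrO4, where they ranged from −1.06 to 0.56 and 8.2% of all genes passed. GADD45A stood 1.35 above these vehicles in CdCl2 (adjusted p = 4.6e-10) and 0.43 above them in K2CrO4 (adjusted p = 0.0657), and CDKN1A stood at 0.91 in CdCl2 (adjusted p = 1.5e-05) and −0.44 in K2CrO4 (adjusted p = 0.0791), all from limma. The vehicles differ in solvent, and 5 of these 8 share repeated Cq values with another condition, which the 4 metal samples do not (at most 4 values in common with any sample). With those conditions left out, 41 genes were called for CdCl2 and 5 for K2CrO4. Without 1 of its own samples, CdCl2 differed from these vehicles in 39 to 41 genes, with 4 higher without replicate 1 and 2 without replicate 2. K2CrO4 differed from them in 3 genes without replicate 1, in 2 without replicate 2 and in 9 with GUSB alone.

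**Figure D4:**
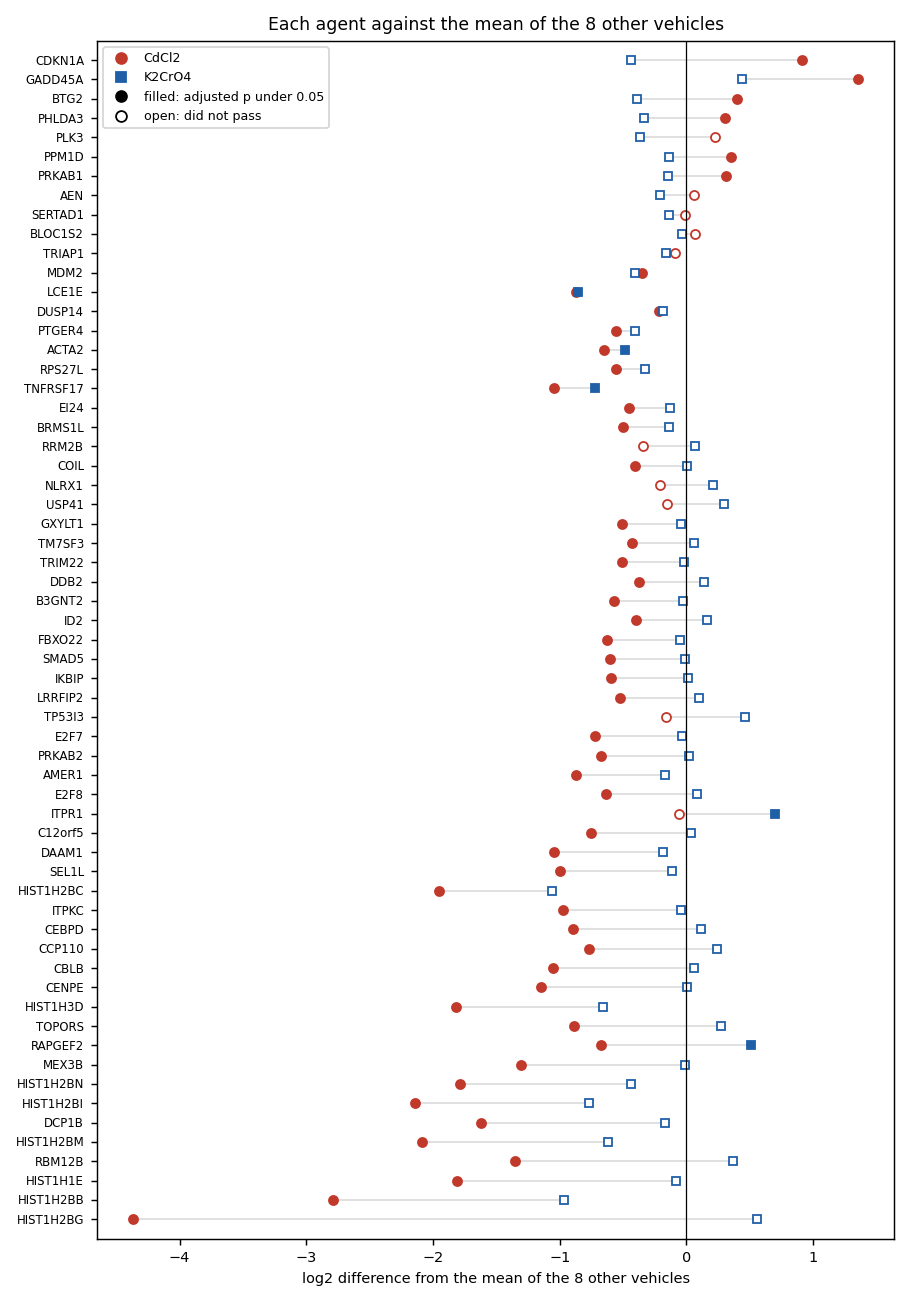
Log2 difference of each gene from the mean of the 8 other vehicles (x axis) in CdCl2 (red circles) and K2CrO4 (blue squares), genes in the order of their direct difference. Filled symbols passed at an adjusted p under 0.05 from limma, which does not take in the spread between the 8 vehicles. Of the symbols, 51 are filled for CdCl2 and 5 for K2CrO4.

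Against their own H2O vehicle, CdCl2 differed in 33 genes (54.1%), 14 higher (23%) and 19 lower (31.1%), and K2CrO4 in 30 (49.2%), 24 higher (39.3%) and 6 lower (9.84%). These splits depend on the reference gene: HPRT1 alone gave 18 higher and 14 lower in CdCl2, and 29 and 3 in K2CrO4, whereas GUSB alone gave 7 and 23, and 17 and 9. In the H2O vehicle, GUSB minus HPRT1 was 1.60 and 1.68 cycles. Against the panel median the split was 4 higher and 21 lower in K2CrO4. Both comparisons use the same 2 vehicle samples. Without 1 sample, CdCl2 differed from H2O in 24 to 28 genes, with 7 higher without CdCl2 replicate 2 and 9 without H2O replicate 2, and K2CrO4 differed from H2O in 20 to 24. HIST1H2BG differed from H2O by −2.84 in CdCl2 and by 2.09 in K2CrO4. Against the mean of the 8 other vehicles it differed by −4.37 in CdCl2. In K2CrO4 that difference was 0.56 and did not pass (adjusted p = 0.0791 from limma). In 14 of the 35 genes that differed between the agents, the mean of the H2O vehicle lay between both of them.

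Against 2-DG, an agent in the same solvent that is classed as non-DDI, CdCl2 differed in 39 genes (63.9%), 7 higher (11.5%) and 32 lower (52.5%), and K2CrO4 in 2 (3.28%), HIST1H2BG (2.06 higher, adjusted p = 8.8e-07) and ID2 (0.63 higher, adjusted p = 0.00767, both from limma). At an unadjusted p under 0.05 the counts were 39 and 7. With the panel median, CdCl2 had 11 genes higher and 11 lower. Without 2-DG replicate 1 it differed in 23 genes, and without either CdCl2 replicate in 25. The 4 arrest genes were all higher in CdCl2 than in 2-DG, with a median of 0.86, and none passed in K2CrO4, with a median of −0.11.

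Among the 38 conditions of the series, CdCl2 had the lowest mean level in 8 genes and K2CrO4 in none. The 8 were HIST1H2BG, RBM12B, DCP1B, CCP110, ITPKC, SEL1L, SMAD5 and BRMS1L. For HIST1H2BG the CdCl2 mean was −7.04, and the next lowest, in cells treated with methyl methanesulfonate, was −5.62. Of the CdCl2 means, 21 of 61 lay within the range of the 8 other vehicles, 35 below and 5 above. Of the K2CrO4 means, 56 lay within that range, 4 below and 1 above. CDKN1A ranked 13 from the top in CdCl2 and 37 in K2CrO4, where only antimycin A stood lower. GADD45A ranked 13 in CdCl2 and 26 in K2CrO4.

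Distances between conditions were taken on their mean levels, not on changes from each agent's own vehicle. By the root mean square of the differences over all 61 genes, the condition nearest to CdCl2 was methotrexate, an antifolate, at 0.88. Without HIST1H2BG it was the H2O vehicle of NaAsO2, at 0.76, ahead of methotrexate at 0.80. The condition nearest to K2CrO4 was trichostatin A, a histone deacetylase inhibitor, at 0.29, and at 0.28 without HIST1H2BG. Docetaxel and paclitaxel, which stabilise microtubules, followed at 0.34 and 0.38, and then the DMSO vehicle at 0.39. Oxamflatin, apicidin and HC toxin, which also inhibit histone deacetylases, lay farther from K2CrO4, at 0.84, 0.90 and 0.95. CdCl2 and K2CrO4 lay 1.05 apart, and 0.85 apart without HIST1H2BG. From their own H2O vehicle, CdCl2 lay 0.94 and K2CrO4 0.81 away. In the paper, profiles were normalized to the vehicle of each agent. Its principal component analysis and clustering placed K2CrO4 with the DDI agents and trichostatin A with the non-DDI agents. In its probability analysis K2CrO4 was inconclusive.

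**Figure D5:**
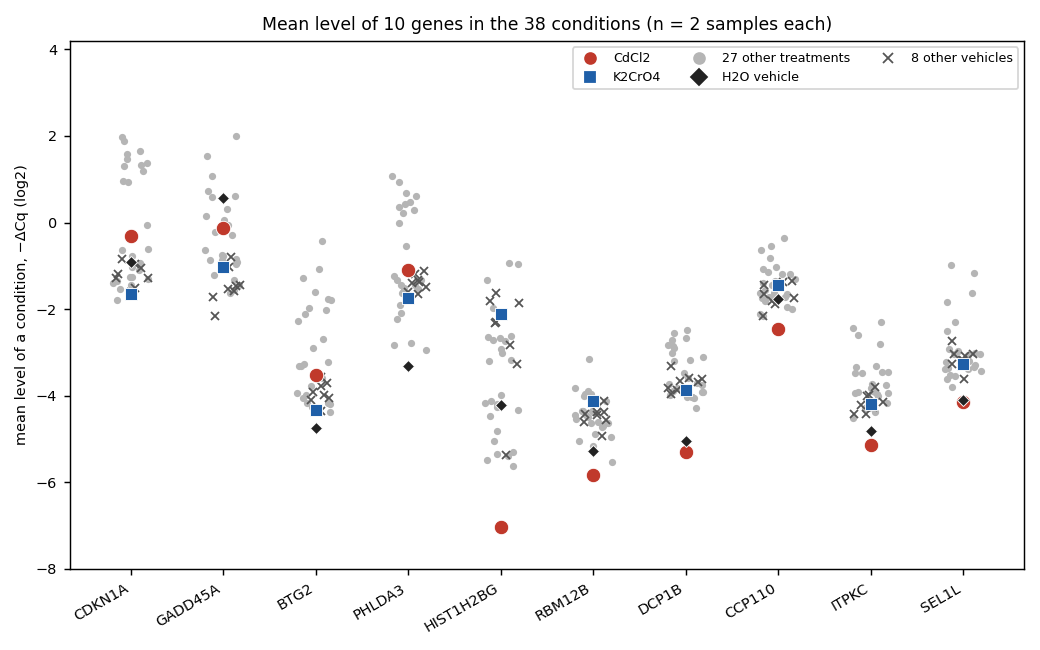
Mean level (−ΔCq, log2 scale, y axis) of 10 genes in each of the 38 conditions, 2 samples each, with CdCl2 as red circles, K2CrO4 as blue squares, the H2O vehicle as black diamonds, the 8 other vehicles as crosses and the other treatments as grey points. The CdCl2 mean is the lowest of all conditions for HIST1H2BG, RBM12B, DCP1B, CCP110, ITPKC and SEL1L, and lies in the middle of the range for GADD45A and PHLDA3.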

How the data were processed

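Quantification cycles (Cq) of 61 genes and of HPRT1 and GUSB in 76 samples were used as deposited. They come from TaqMan reactions that the authors ran on an array of their own design, and the deposited table gives 1 Cq per gene and sample, in cycles, with no further normalization. A second deposited table holds the authors' fold changes over the vehicle and was not used. Groups and replicate numbers came from the sample titles. Level was the mean Cq of HPRT1 and GUSB minus that of the gene.

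Using R 4.3.3, limma (version 3.58.1) was run on the levels of all 76 samples with a mean for every one of the 38 conditions, on 38 residual degrees of freedom, with Benjamini-Hochberg adjustment over 61 genes in each of 7 comparisons. The 2 against 2 design cannot go below p = 0.333 in an exact test of single genes. The fit was tested on simulated data.

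Genes named with all values were the 12 highest and 12 lowest differences among those past the threshold without overlap between the agents (6 were higher), with CDKN1A, GADD45A, the histone genes and the members of each role that did not pass. Others were named after their values were seen. The samples, roles and lists were chosen with earlier results of these data known. Role lists came from known gene function.

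Alternatives were the reference gene, the panel median, left-out samples, a replicate block, the samples in the fit, genes with a mean Cq above 30, a variance trend and Holm adjustment. Promoter windows matched 51 of 61 genes. Some genes were renamed through RefSeq. Figures were drawn with matplotlib 3.10.9.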

Additional observations from a re-analysis of the deposited data

How the results depend on the processing

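Between CdCl2 and K2CrO4, 22 genes were called with the panel median (15 higher, 7 lower) and 21 with Holm adjustment (4 higher, 17 lower). With the 4 samples alone, 44 were lower. Without 1 of the 4 samples, 24 to 33 genes were called, 3 to 6 higher and 21 to 28 lower. Of the 35 calls, 13 kept their direction and call with the panel median, 24 without CdCl2 replicate 2 and 35 with GUSB alone, the H2O family, a variance trend, the replicate block or the 4 samples.

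Holm adjustment left 21 genes between CdCl2 and H2O, 17 between K2CrO4 and H2O and 17 between CdCl2 and 2-DG. The panel median gave 29 between CdCl2 and the 8 other vehicles, 11 between K2CrO4 and these vehicles, 22 between CdCl2 and 2-DG and 4 between K2CrO4 and 2-DG. K2CrO4 against the 8 other vehicles gave 9 with GUSB alone, and 4 genes differed from 2-DG in the H2O family. Without 1 sample, K2CrO4 differed from the 8 other vehicles in 2 to 3 genes and from 2-DG in 1 to 2, and CdCl2 from 2-DG in 23 to 32.

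Directions turned with the panel median in ACTA2 (0.42), B3GNT2 (0.035), BRMS1L (0.22), COIL (0.17), DDB2 (0.065), DUSP14 (0.55), EI24 (0.26), FBXO22 (0.01), GXYLT1 (0.12), ID2 (0.03), LCE1E (0.56), NLRX1 (0.17), PTGER4 (0.43), RPS27L (0.35), RRM2B (0.18), TM7SF3 (0.10), TNFRSF17 (0.27), TRIM22 (0.10) and USP41 (0.14), and in the medians of the p53 targets (0.43) and of all genes (0.01). With HPRT1 alone DUSP14 (0.015) and LCE1E (0.03) turned. Without 1 sample, DUSP14 (−0.0925 to 0.0225), LCE1E (−0.1175 to 0.0775), MDM2 (−0.0675 to 0.1675) and TRIAP1 (−0.0725 to 0.2225) crossed 0. With the panel median, a small median over all genes follows from the scaling itself. The cause of the other turns was not tested.

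The replicate numbers are shared between groups, but no label says that a number marks a shared occasion, and the deviations of same-numbered samples correlated at 0.401 (CdCl2 with K2CrO4), −0.185 (CdCl2 with H2O) and −0.147 (K2CrO4 with H2O). With the replicate number as a block, 46 genes differed between the agents (7 higher, 39 lower) and 16 between K2CrO4 and the 8 other vehicles (4 higher, 12 lower). A setting chosen after seeing the data left out conditions with repeated Cq values, and 35 genes were called (5 higher, 30 lower), 33 of them shared with the calls above.

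Each agent had 2 samples, which limits the precision of small differences. CEBPD, LCE1E, TP53I3 and USP41 were measured at Cq values above 30 cycles in all 4 samples, where few template copies limit precision.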

Other observations

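NaAsO2, another metal compound given in H2O (20 µM) but with an H2O vehicle of its own, was not part of the comparison. Its mean level of HIST1H2BG over 2 samples was −4.83, against −2.84 in its vehicle, and thus lay between the means of CdCl2 (−7.04) and K2CrO4 (−2.12). Its mean level of CDKN1A was 1.66, against −1.62 in its vehicle, above both CdCl2 (−0.30) and K2CrO4 (−1.65). These values were not tested.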
